A study of Mus musculus with 8 samples.

Results

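Prostaglandins are lipid signals, and 6 genes of their synthesis, breakdown and reception were followed across 4 populations of newborn mouse bone marrow stroma. They are *Ptgs1*, *Ptgs2*, *Ptges*, *Ptgis*, *Hpgd* and *Ptger4*, each found under 1 identifier in a table of 15880 genes. They were selected on their normalized signal in these same libraries. Their values are therefore given as a description, with no test.

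The populations were sorted from bones of heterozygous *Nes-Gfp* pups of C57BL/6 background on postnatal day 1, in which nestin regulatory elements drive GFP. Crushed bones were digested with collagenase, and cells negative for CD45, CD31 and Ter119 were divided by GFP and by surface Pdgfrα, the receptor for platelet-derived growth factor. RNA of 15000 to 80000 cells from 3 pooled pups made 1 library. There were 2 libraries for each of the GFP-Pdgfrα-, GFP+Pdgfrα-, GFP-Pdgfrα+ and GFP+Pdgfrα+ populations. GFP marks activity of the transgene, not of the endogenous nestin gene.

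Reads on genes numbered 4058258 and 5302762 in the GFP-Pdgfrα- population, always given here as replicate 1 and then replicate 2. They numbered 3644103 and 3427644 in GFP+Pdgfrα- cells. The GFP-Pdgfrα+ libraries held 3869275 and 3221217, and the GFP+Pdgfrα+ libraries 3564158 and 3329432. The normalized signal adds 0.5 to the reads of a gene and scales them to 1000000 of a library's effective size, so that 3 reads were worth 0.825 to 1.04. A population with at most 3 reads in both libraries is called at the floor. For such a population reads are given in place of a fold, because the fitted fold then depends on the pseudocount. The floor covers counting error alone, since several reads can stem from 1 amplified molecule. Libraries of 1 population differed by more than counting noise, with a chi-square per degree of freedom of 3.81 to 8.16, and all 8 were kept as separate replicates.

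Fold changes are differences of log2(signal + 1), a scale that understates the change of low genes, and standard errors are those of a limma fit over all 8 libraries, in which a gene has the same error in each of the 4 comparisons of populations. Fewer cells that transcribe a gene and less RNA per cell cannot be told apart in sorted bulk RNA. A permutation of 2 libraries against 2 cannot give an exact two-sided p below 0.333, so the tests of other pathway genes borrow their error from the pooled spread of all genes in limma.

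The populations differed in the other cells whose markers they carried. The GFP-Pdgfrα- libraries stood apart through erythroid RNA despite the depletion of Ter119. The 7 measured of 9 erythroid markers summed to 9328 and 15287 there, and to between 31.6 and 115 in the other 6 libraries. *Hbb-b1*, a β-globin gene, was the most abundant of them, at 4362 and 7619 in GFP-Pdgfrα- cells. *Kit*, found on mast cells and blood progenitors, stood at 347 and 266 in the same libraries, while 6 of the 8 mast cell markers were not listed in the table. The other measured mast cell marker, *Hdc*, was at only 3.30 and 1.77 there.

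All 8 osteoblast markers were measured, and their sum was highest in GFP+Pdgfrα+ cells, at 60977 and 44795. It was 17320 and 15680 in GFP-Pdgfrα+ cells, 3872 and 3202 in the GFP+Pdgfrα- population, and 551 and 673 in GFP-Pdgfrα- cells. *Col1a1*, the major collagen gene of bone, was the most abundant of these markers and made up most of the sums. Without it, the other 7 markers summed to 9793 and 6483 in GFP+Pdgfrα+ cells, 773 and 640 in the GFP+Pdgfrα- population, 479 and 328 in GFP-Pdgfrα+ cells and 116 and 113 in the GFP-Pdgfrα- population, so that the single-positive populations changed places. The 5 tendon markers, led by *Fmod*, summed to 1589 and 1677 in GFP-Pdgfrα+ cells, against 182 and 156 in GFP+Pdgfrα+ cells. Their sum was at most 88.3 in the 4 Pdgfrα- libraries.

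GFP+Pdgfrα- cells carried the markers of mural, muscle and glial cells. The 9 smooth muscle and pericyte markers, led by *Rgs5*, summed to 2041 and 2639 there, and to between 84.0 and 484 in the other 6 libraries. The 7 skeletal muscle markers summed to 769 and 803, led by *Pax7* of muscle precursors, and to at most 66.1 elsewhere. For the Schwann cell lineage, the 9 markers summed to 487 and 444, and to between 26.9 and 202 elsewhere. *Ngfr*, the most abundant of them over all libraries, did not follow that sum. It was at 33.6 and 23.3 in GFP+Pdgfrα- cells, but at 94.6 and 109 in GFP+Pdgfrα+ cells and at 59.1 and 49.5 in the GFP-Pdgfrα+ population.

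The 7 chondrocyte markers, led by *Col2a1*, summed to 678 and 2128 in GFP-Pdgfrα+ cells, 554 and 975 in the GFP-Pdgfrα- population, 311 and 408 in GFP+Pdgfrα+ cells and 71.3 and 100.2 in the GFP+Pdgfrα- population. The 6 markers of Sca1-positive fibroblasts, led by *Dpt*, summed to 551 to 895 in the Pdgfrα+ libraries, to 205 and 199 in GFP+Pdgfrα- cells, and to 10.6 and 12.03 in GFP-Pdgfrα- cells. The 8 endothelial markers, led by *Vwf*, summed to between 59.5 and 171 over the libraries.

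The 7 measured of 10 macrophage markers, led by *Lyz2*, summed to at most 55.5, and 7 of 8 granulocyte markers, led by *Ngp*, to at most 67.1, both highest in GFP-Pdgfrα- cells. For megakaryocytes, 6 of 10 markers summed to between 23.3 and 150, with *Itgb3* the most abundant. Without it, the other 5 summed to 17.7 and 22.3 in GFP-Pdgfrα- cells and to at most 12.8 elsewhere. The single measured lymphoid marker of 6, *Cd79a*, stayed at 3.52 or less. Of the sorting markers, *Pdgfra* was at 733 to 839 in the Pdgfrα+ libraries and at 18.1 or less in the others. *Ptprc*, which encodes CD45, reached 11.3 and *Pecam1*, which encodes CD31, reached 27.9, both in GFP-Pdgfrα- cells. Of 6 sorting markers 5 were measured. Without *Pdgfra*, the others summed to 518 and 543 in these cells and to between 32.3 and 197 elsewhere. Most of the first sums lay outside *Ptprc*, *Pecam1* and *Nes*. *Nes* was at 149 and 176 in GFP+Pdgfrα- cells, 57.6 and 72.0 in the GFP+Pdgfrα+ population, 27.4 and 47.1 in GFP-Pdgfrα+ cells and 3.59 and 9.08 in the GFP-Pdgfrα- population. The number of measured markers at the floor in all 8 libraries was 0 in each list. The part of these cell types in the results was not tested.

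The first step of the pathway frees arachidonic acid from membrane phospholipids by phospholipases A. Cyclooxygenases turn it into prostaglandin H, from which terminal synthases make prostaglandin E, prostacyclin and other prostanoids that act on receptors of nearby cells until they are imported and oxidized. In bone, prostaglandin E is known to act on both bone formation and bone resorption. *Ptgs1* is commonly described as the constitutive cyclooxygenase gene and *Ptgs2* as the inducible one.

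*Ptgs1* (ENSMUSG00000047250) lies on the plus strand of chromosome 2, from 36085946 to 36107792 in NCBIM37. Its signal was 25.6 and 20.6 in GFP-Pdgfrα+ cells and 5.39 and 7.91 in the GFP+Pdgfrα+ population. In the Pdgfrα- populations it was 1.58 and 1.77 without GFP and 1.58 and 1.67 with GFP. Both GFP-Pdgfrα+ libraries thus lay above both GFP+Pdgfrα+ libraries, these lay above all Pdgfrα- libraries, and the Pdgfrα- populations overlapped. Means were 23.1 ± 3.50 (SD, n = 2), 6.65 ± 1.78 (SD, n = 2), 1.67 ± 0.134 (SD, n = 2) and 1.63 ± 0.0665 (SD, n = 2) in that order. The log2 fold change with GFP was -1.67 (standard error 0.37) among Pdgfrα+ cells and -0.03 among Pdgfrα- cells, where it ran from -0.077 without GFP-Pdgfrα- replicate 1 to 0.025 without replicate 2. With Pdgfrα it was 1.52 among GFP+ and 3.17 among GFP- cells, with the same standard error. The Pdgfrα- signals rest on 5 to 7 reads a library.

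*Ptgs2* (ENSMUSG00000032487) occupies 151947254 to 151955140 on the plus strand of chromosome 1. It stood at 78.0 and 64.0 in GFP+Pdgfrα+ cells, from 282 and 222 reads. The signals were 8.70 and 2.52 in GFP-Pdgfrα+ cells, 3.52 and 2.44 in the GFP+Pdgfrα- population, and 1.87 and 1.77 in GFP-Pdgfrα- cells. Only the GFP+Pdgfrα+ libraries were high among the 8, and the next 2 populations in order overlapped. In the same order the means were 71.0 ± 9.94 (SD, n = 2), 5.61 ± 4.37 (SD, n = 2), 2.98 ± 0.761 (SD, n = 2) and 1.82 ± 0.0695 (SD, n = 2).

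Between the Pdgfrα+ populations, the log2 fold change of *Ptgs2* with GFP was 3.62 (standard error 0.45). Leaving out GFP-Pdgfrα+ replicate 1 gave 4.35, and leaving out replicate 2 gave 2.89. Between the Pdgfrα- populations the GFP difference was 0.49, which became 0.29 without GFP+Pdgfrα- replicate 1 and which quantile normalization turned to -0.23. The difference with Pdgfrα was 4.18 among GFP+ cells. Among GFP- cells it was 1.05, and 0.32 or 1.78 when GFP-Pdgfrα+ replicate 1 or 2 was left out.

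The cyclooxygenase genes thus had their highest signals in different Pdgfrα+ populations. Divided by merged exon length, which is 3884 bases for *Ptgs1* and 4143 for *Ptgs2*, their levels can be set against each other. *Ptgs2* made up 93.1% and 88.4% of the summed signal per kilobase of both genes in GFP+Pdgfrα+ cells, and 24.2% and 10.3% in the GFP-Pdgfrα+ population. The share was 67.7% and 57.8% in GFP+Pdgfrα- cells and 52.6% and 48.4% in the GFP-Pdgfrα- population, where both genes were low. The shares of no population overlapped those of another. In the Pdgfrα- libraries they rest on 5 to 7 reads of *Ptgs1* and 6 to 14 of *Ptgs2*, so the order there is uncertain.

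**Figure D1:**
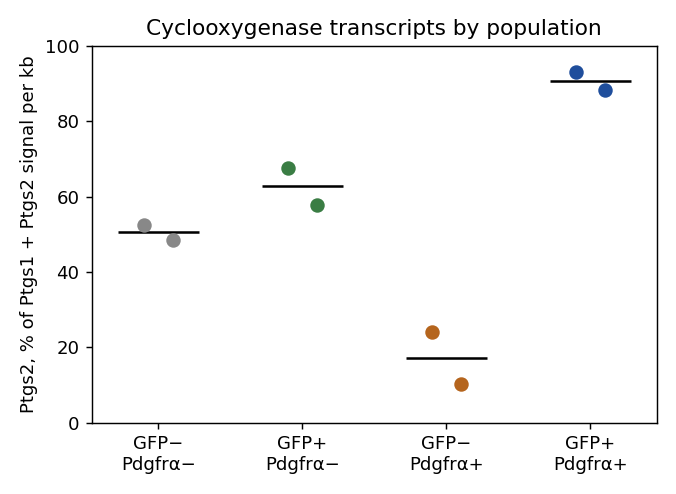
Share of *Ptgs2* in the summed normalized signal per kilobase of *Ptgs1* and *Ptgs2* (vertical axis, percent) in each library (points) with the mean of the population (line). The GFP+Pdgfrα+ libraries lie at 93.1% and 88.4% and the GFP-Pdgfrα+ libraries at 24.2% and 10.3%.

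*Ptges* encodes the inducible microsomal prostaglandin E synthase and lies on the minus strand of chromosome 2, from 30744991 to 30785383 (ENSMUSG00000050737). Its signal was 16.8 and 18.6 in GFP-Pdgfrα+ cells and 12.6 and 20.6 in the GFP+Pdgfrα+ population. It was 0.607 and 1.93 in GFP+Pdgfrα- cells, while GFP-Pdgfrα- cells were at the floor with 0 and 1 read. Both Pdgfrα+ populations were therefore high and overlapped each other, and both Pdgfrα- populations were low. Their means were 17.7 ± 1.27 (SD, n = 2) and 16.6 ± 5.65 (SD, n = 2), against 1.27 ± 0.935 (SD, n = 2) and 0.249 ± 0.149 (SD, n = 2).

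The log2 fold change of *Ptges* with Pdgfrα among GFP+ cells was 2.98 (standard error 0.42). With GFP among Pdgfrα+ cells it was -0.12, and leaving out GFP+Pdgfrα+ replicate 1 or 2 moved it to 0.21 or -0.46. Without GFP-Pdgfrα+ replicate 1 or 2 it was -0.19 or -0.055. No fold is given against the GFP-Pdgfrα- cells, because a single read was found there.

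*Ptgis*, the prostacyclin synthase gene (ENSMUSG00000017969), spans 167017305 to 167066104 on the minus strand of chromosome 2. Its signal was 72.2 and 59.8 in GFP-Pdgfrα+ cells and 54.8 and 47.0 in the GFP+Pdgfrα+ population. GFP+Pdgfrα- cells had 29.3 and 30.2, and GFP-Pdgfrα- cells 2.15 and 1.06, from 7 and 4 reads. No neighbours in this order overlapped, and GFP-Pdgfrα- cells alone were low. The means were 66.0 ± 8.76 (SD, n = 2), 50.9 ± 5.53 (SD, n = 2), 29.7 ± 0.686 (SD, n = 2) and 1.61 ± 0.773 (SD, n = 2).

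GFP went with a higher *Ptgis* signal among Pdgfrα- cells (log2 fold change 3.59, standard error 0.26) and with a lower one among Pdgfrα+ cells (-0.37, and -0.23 without GFP-Pdgfrα+ replicate 1). With Pdgfrα the log2 fold change was 4.71 among GFP- cells and 0.75 among GFP+ cells. The exons share 156 bases with *1110018N20Rik* on the opposite strand, and reads of these bases cannot be told apart because no strand was stated for the counting.

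*Hpgd* encodes the dehydrogenase that oxidizes and so inactivates prostaglandins, and spans 58773349 to 58799843 on the plus strand of chromosome 8 (ENSMUSG00000031613). It stood at 141 and 93.0 in GFP+Pdgfrα+ cells, from 509 and 323 reads. Its signal was 13.7 and 7.59 in GFP+Pdgfrα- cells, 11.7 and 7.87 in the GFP-Pdgfrα+ population, and 3.30 and 0.825 in GFP-Pdgfrα- cells. As for *Ptgs2*, the GFP+Pdgfrα+ libraries were high and all others low, and the single-positive populations overlapped each other. The means were 117 ± 33.7 (SD, n = 2), 10.7 ± 4.33 (SD, n = 2), 9.80 ± 2.72 (SD, n = 2) and 2.06 ± 1.75 (SD, n = 2).

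For *Hpgd*, the log2 fold change with GFP was 3.44 (standard error 0.43) among Pdgfrα+ cells and 2.00 among Pdgfrα- cells. With Pdgfrα it was 3.36 among GFP+ cells and 1.92 among GFP- cells. Leaving out a GFP-Pdgfrα- library moved the GFP difference to between 1.39 and 2.62, and the Pdgfrα difference to between 1.30 and 2.54.

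*Ptger4* encodes the EP4 receptor of prostaglandin E, which raises cyclic AMP, and lies on the minus strand of chromosome 15, from 5156661 to 5194187 (ENSMUSG00000039942). Its signal was 15.5 and 10.5 in GFP-Pdgfrα+ cells, 10.9 and 9.63 in the GFP+Pdgfrα+ population, and 9.33 and 8.84 in GFP-Pdgfrα- cells. It was 2.06 and 4.50 in GFP+Pdgfrα- cells, from 8 and 17 reads. Of the 6 genes, this receptor had the narrowest ratio between its highest and lowest population mean. GFP+Pdgfrα- cells alone were low, and the upper pair of populations overlapped. Means were 13.0 ± 3.51 (SD, n = 2), 10.3 ± 0.905 (SD, n = 2), 9.09 ± 0.348 (SD, n = 2) and 3.28 ± 1.72 (SD, n = 2).

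The log2 fold change of *Ptger4* with GFP was -1.30 (standard error 0.37) among Pdgfrα- cells and -0.29 among Pdgfrα+ cells. The first became -0.87 or -1.72 when GFP+Pdgfrα- replicate 1 or 2 was left out. The second became -0.037 or -0.55 without GFP-Pdgfrα+ replicate 1 or 2. With Pdgfrα it was 1.45 among GFP+ and 0.45 among GFP- cells, and the latter was 0.19 or 0.71 without the same libraries. Its exons share 1015 bases with *Gm15937* and 82 with *Ttc33*, both on the opposite strand, so that reads there cannot be told apart.

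**Figure D2:**
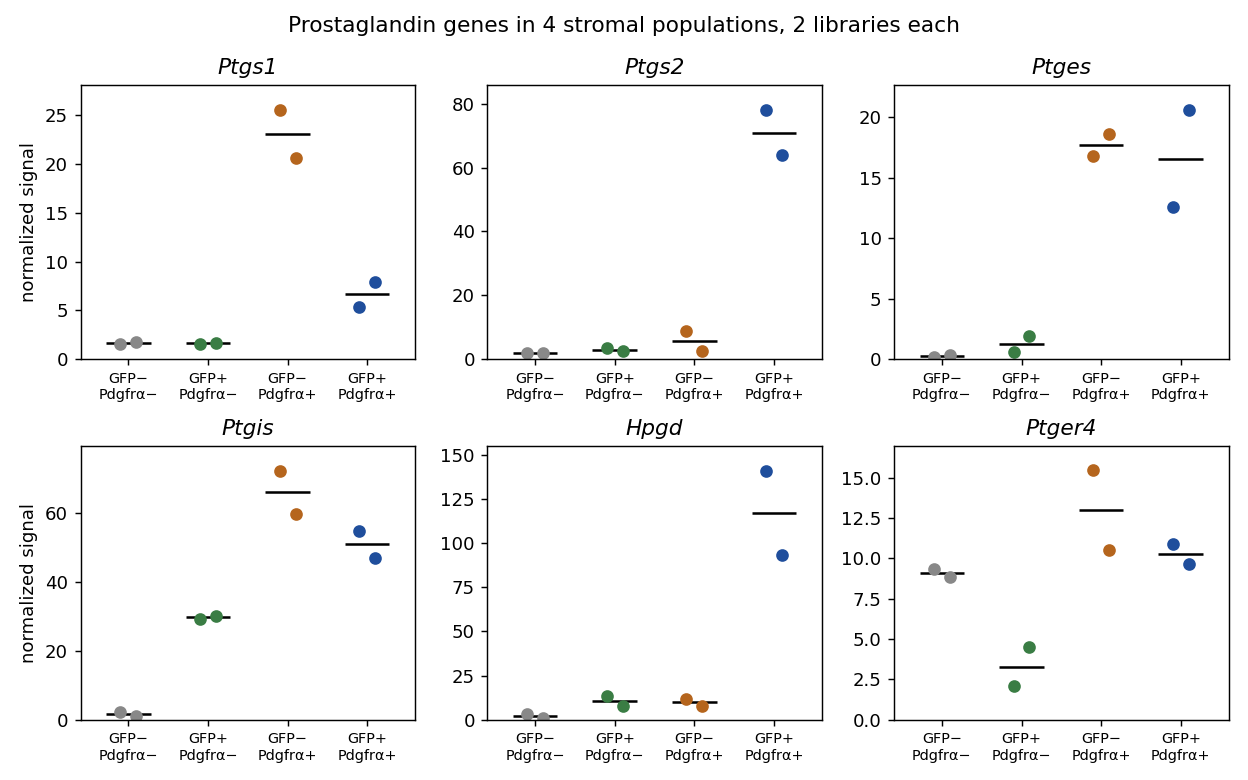
Normalized signal (vertical axes, linear and from 0) of the 6 genes in the 8 libraries, with a point for each library and a line at the mean of each population. *Ptgs2* and *Hpgd* are highest in GFP+Pdgfrα+ cells, *Ptgs1* and *Ptgis* in GFP-Pdgfrα+ cells, and *Ptges* is high in both Pdgfrα+ populations.

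Per kilobase of exon, the GFP+Pdgfrα+ population had its highest level for *Hpgd*, at a mean of 68.0. *Ptgis* followed at 19.8, *Ptgs2* at 17.1, *Ptges* at 4.21, *Ptgs1* at 1.71 and *Ptger4* at 1.54. In GFP-Pdgfrα+ cells the order was another one, with *Ptgis* first at 25.7 per kilobase. *Ptgs1* and *Hpgd* followed at 5.95 and 5.70, then *Ptges* at 4.49, *Ptger4* at 1.96 and *Ptgs2* at 1.35. *Ptgis* also led in GFP+Pdgfrα- cells, at 11.6 per kilobase against 6.2 for *Hpgd*. *Ptgs2* came next at 0.720, and the remaining 3 genes were lower.

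Over the 8 libraries, the log2 signals of *Ptgs2* and *Hpgd* correlated at r = 0.94 and those of *Ptgs1* and *Ptges* at r = 0.88. The 15 pairs ranged down to r = 0.07, for *Ptgis* and *Ptger4*. These are descriptions of 8 libraries that fall into 4 populations, and the values of a library share its depth.

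Among 9018 genes with a mean signal of at least 10, the pattern of *Ptgs2* was most like those of *Tnks2* (r = 0.99), *Bglap2* (r = 0.98) and *Pltp* (r = 0.98). *Bglap2*, an osteocalcin gene, stood at 42.4 and 32.9 in GFP+Pdgfrα+ cells and at 2.14 or less in every other library. *Tnks2* had the same order over a narrow range, from 211 to 323. For *Hpgd* the closest genes were *Alpl* (r = 0.99), *Scfd1* (r = 0.98) and *Dlx3* (r = 0.98). *Alpl*, the alkaline phosphatase of mineralizing cells, was at 298 and 201 in GFP+Pdgfrα+ cells and at 34.4 or less elsewhere. *Bglap2*, *Pltp* and *Dlx3* met the mean of 10 only through the GFP+Pdgfrα+ libraries. A high signal there was thus a condition of their entry into the search.

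The genes closest to *Ptgs1*, *Ptges* and *Ptgis* were each higher in every Pdgfrα+ library than in any Pdgfrα- library. *Ptgs1* was closest to *Camk4* (r = 0.99), *Scube2* (r = 0.99) and *Tgfbi* (r = 0.99), and *Camk4* stood at 88.1 and 87.2 in GFP-Pdgfrα+ cells against 21.4 and 26.0 in GFP+Pdgfrα+ cells. *Ptges* was closest to *Bmper*, *Aldh1a2* and *Thbs1*, all at r = 0.99. *Camk4*, *Scube2*, *Bmper* and *Aldh1a2* were below 10 in every Pdgfrα- library, so they entered the search only through the Pdgfrα+ libraries. For *Ptgis* the closest were *Neo1*, *Igf2bp2* and *Zfp354c* (all at r = 0.999). For *Ptger4* they were *St3gal1* (r = 0.98), *Hdac7* (r = 0.97) and *Os9* (r = 0.96), which like it were lowest in GFP+Pdgfrα- cells.

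Sequence upstream of the start was found in RefSeq for 5 of the 6 genes, in build GRCm38.p6, and *Ptgis* had no entry. The 250 bases before the start of *Ptgs2* and *Hpgd* are shown because these genes shared their highest population, with *Ptgs1* as the cyclooxygenase gene of the other pattern. Capitals mark matches, on either strand, to the GC box GGGCGG, the Runx site ACCACA and the C/EBP palindrome TTGCGCAA.
*Ptgs2*, chr1:150099781-150100030, plus strand: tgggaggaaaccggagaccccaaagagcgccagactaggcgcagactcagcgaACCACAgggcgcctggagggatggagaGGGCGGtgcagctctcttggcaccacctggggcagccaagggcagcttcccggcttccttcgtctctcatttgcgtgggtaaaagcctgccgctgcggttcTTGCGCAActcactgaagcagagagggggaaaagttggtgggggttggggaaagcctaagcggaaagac
*Hpgd*, chr8:56294302-56294551, plus strand: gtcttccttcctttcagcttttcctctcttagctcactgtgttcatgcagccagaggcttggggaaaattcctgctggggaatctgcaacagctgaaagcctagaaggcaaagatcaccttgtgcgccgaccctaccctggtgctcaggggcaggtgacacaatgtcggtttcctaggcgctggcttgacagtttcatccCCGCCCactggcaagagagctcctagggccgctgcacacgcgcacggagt
*Ptgs1*, chr2:36230176-36230425, plus strand: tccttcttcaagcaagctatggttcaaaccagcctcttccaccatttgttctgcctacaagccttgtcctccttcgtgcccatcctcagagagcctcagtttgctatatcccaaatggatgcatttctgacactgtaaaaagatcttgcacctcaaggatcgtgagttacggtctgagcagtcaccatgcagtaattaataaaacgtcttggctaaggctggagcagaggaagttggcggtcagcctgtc

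In the full window of 300 bases, which ends 50 after the start, the TATA box TATAAA, the cyclic AMP response element half-site TGACG and the E-box CACGTG were searched as well, on both strands. The 6 motifs were written down with the levels known, and the window was widened from the upstream bases alone after a first search, so the matches are descriptions only. *Ptgs2* held ACCACA 197 bases before the start, GGGCGG 170 before and TTGCGCAA 69 before. After the annotated start it held CGTCA, the half-site on the opposite strand, at base 14, and CACGTG at base 17, which overlaps it. All positions count from the annotated starts, which were not tested with these libraries, so whether a match is transcribed is not known. *Hpgd* held CCGCCC, the GC box on the opposite strand, 50 bases before the start and TATAAA at base 5 after it. The GC box was not particular to these genes, since *Ptges* held GGGCGG 53 and 42 bases before its start and *Ptger4* held CCGCCC at 4 places.

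*Ptgs1* held none of these 6 strings in its window. Of 32851 promoters of the same length, 35.7% held the GC box, 20.8% the half-site, 16.8% the Runx site, 13.6% the TATA box and 7.15% the E-box. The C/EBP palindrome was in 0.183% of them. Among the upstream bases, 61.6% were G or C in *Ptgs2*, 56.8% in *Hpgd* and 48.0% in *Ptgs1*.

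The other genes of the pathway were placed in 4 lists, for arachidonate release, other prostanoid synthases, breakdown and transport, and other receptors. The receptor list also holds *Ptgfrn*, whose product is a partner of a receptor and not itself a prostanoid receptor. Of 42 listed genes, 28 were measured, 7 in each list. The rest were not listed in the table, among them 11 of 18 phospholipases, *Akr1c18*, and the receptor genes *Ptgdr* and *Ptgdr2*. These genes were tested with limma over all 15880 genes and called at a Benjamini–Hochberg adjusted p of at most 0.05.

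Between GFP+ and GFP- cells that were all Pdgfrα+, 2 of the 28 genes were called, both higher with GFP. Over all genes 5.35% were called, 3.22% higher and 2.13% lower. Without 1 of the compared libraries, these 849 calls fell to between 246 and 517. The secreted phospholipase gene *Pla2g5* had 28 and 29 reads in GFP+Pdgfrα+ cells, 1 and 0 in the GFP-Pdgfrα+ population and 0 in all 4 Pdgfrα- libraries, and was called at an adjusted p of 0.000597 (limma). *Akr1b3*, an aldose reductase gene whose product can also make prostaglandin F, stood at 45.7 and 39.8 with GFP against 11.7 and 15.9 without. It rose by a log2 fold change of 1.57 (standard error 0.19, adjusted p = 0.000597, limma).

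None of the 7 genes of breakdown and transport or of the 7 genes of the receptor list was called in this comparison by limma. At an unadjusted p under 0.05 there were 1 and 2 of them. Voom called 1 and 2, edgeR 0 and 0, and DESeq2 0 and 1. The uptake transporter gene *Slco2a1* was at 11.5 and 9.63 with GFP and at 41.7 and 22.7 without (log2 fold change -1.47, standard error 0.56, adjusted p = 0.171, limma). The same fit called *Slco2a1* and *Ptgfrn* when GFP-Pdgfrα- replicate 1 or both libraries of that population were left out, and *Ptgfrn* without replicate 2, although these libraries are not in the comparison.

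The median log2 fold change of the 28 genes was 0.13 in this comparison, and 0.03 with signals below 3 reads raised to 3 reads, against 0.005 and 0.02 over all genes. The count of 2 became 5 with voom and 4 when GFP-Pdgfrα- replicate 1, or both libraries of that population, were left out, the last a choice made after seeing the data.

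Between Pdgfrα+ and Pdgfrα- cells that were all GFP+, 10 of the 28 genes were called, 8 higher and 2 lower with Pdgfrα. Over all genes 24.2% were called, 13.1% higher and 11.1% lower, and with quantile normalization 1986 genes were called higher and 2102 lower in place of 2080 and 1768. *Pla2g4a*, which encodes the cytosolic phospholipase that frees arachidonate, stood at 56.5 and 33.8 with Pdgfrα and at 5.46 and 1.67 without. It rose by a log2 fold change of 3.43 (standard error 0.40, adjusted p = 7e-05, limma). *Pla2g5* was called as well, as was *Pla2g3*, another secreted phospholipase gene, with 11 and 9 reads against 0 in both GFP+Pdgfrα- libraries. Neither gene met the stated filter without the GFP+Pdgfrα+ libraries.

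In the receptor list, 3 of 7 genes were called higher with Pdgfrα among GFP+ cells. *Ptgfr*, the receptor gene for prostaglandin F, stood at 15.1 and 15.4 against 1.58 and 2.70, a log2 fold change of 2.39 (standard error 0.34, adjusted p = 0.00035, limma). The thromboxane receptor gene *Tbxa2r* stood at 9.25 and 10.8 against 0.850 and 3.22, a log2 fold change of 1.98 (standard error 0.44). *Ptger3*, which encodes the EP3 receptor of prostaglandin E, had 4 and 22 reads against 0 and 1.

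Among transporter genes, *Abcc4*, whose product exports prostaglandins, stood at 13.1 and 4.74 with Pdgfrα against 1.82 and 1.93 without (log2 fold change 1.65, standard error 0.40). *Slco2a1* stood at 11.5 and 9.63 against 1.82 and 3.22 (log2 fold change 1.74). *Akr1b3* was lower with Pdgfrα by a log2 fold change of -1.39. The prostaglandin D synthase gene *Ptgds* was also called lower, with 0 and 1 read against 7 and 7.

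The calls of *Pla2g4a*, *Pla2g5*, *Akr1b3* and *Ptgfr* passed under all 18 alternatives, and that of *Pla2g3* under the 16 that gave it a value, not among them DESeq2 and the mean signal of at least 2. The count of 10 was 5 when GFP+Pdgfrα- replicate 1 was left out and 6 without replicate 2. *Tbxa2r* lost its call only without replicate 1, with an adjusted p between 0.00427 and 0.0727 over the limma, edgeR and DESeq2 alternatives. *Ptgds* (0.00773 to 0.148) and *Abcc4* (0.000878 to 0.0892) lost theirs without either of these replicates or without GFP+Pdgfrα+ replicate 1, and *Ptgds* also with edgeR. *Slco2a1* (0.0054 to 0.241) lost its call without any 1 library of the 3 populations that carry GFP or Pdgfrα, and with a pseudocount of 0.1, without the trend and with voom. *Ptger3* (0.0032 to 0.211) did so without any of these libraries but GFP+Pdgfrα+ replicate 1, and without the trend.

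The median log2 fold change of the 28 genes was 0.33 in this comparison, or 0.26 with low signals raised to 3 reads, against -0.02 and -0.003 over all genes.

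Between GFP+ and GFP- cells that were all Pdgfrα-, 14 of the 28 genes were called, 7 higher and 7 lower with GFP. Over all genes 53.7% were called, 30.1% higher and 23.6% lower, so the share of the 28 was near that of all genes. The balance of all genes turned from 4787 higher and 3740 lower to 3923 and 4864 with centring and to 3871 and 4419 with quantile normalization. The median of all genes was 0.15 on the log2 scale and moved to -0.13 when each library was centred on its median. The comparison sets cells with mural, muscle and glial markers against libraries with erythroid RNA.

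All 4 called phospholipase genes were lower with GFP among Pdgfrα- cells. *Pla2g12a* stood at 8.62 and 6.05 against 45.2 and 50.3 (log2 fold change -2.57, standard error 0.41, adjusted p = 0.000193, limma). *Pla2g4c*, a cytosolic phospholipase gene, stood at 1.82 and 0.643 against 40.6 and 37.4 (log2 fold change -4.21, standard error 0.55, adjusted p = 3.87e-05, limma). *Pla2g4a* and *Pla2g6* were lower by log2 fold changes of -2.12 (standard error 0.40) and -1.04 (standard error 0.36). The exporter gene *Abcc4* stood at 1.82 and 1.93 against 65.6 and 55.8, a log2 fold change of -4.42 (standard error 0.40, adjusted p = 1.87e-06, limma).

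Of the synthase genes, 4 of 7 were called higher and 1 lower with GFP among Pdgfrα- cells, and 2 higher and 1 lower with quantile normalization or with DESeq2, which gave *Ptgds* no adjusted p. *Akr1b3* stood at 113 and 115 against 44.7 and 43.98 (log2 fold change 1.34, standard error 0.19, adjusted p = 8.27e-05, limma). *Ptges3*, a cytosolic synthase gene whose product is also a chaperone partner, stood at 77.3 and 69.8 against 160 and 157 and was lower by a log2 fold change of -1.10 (standard error 0.14). *2810405K02Rik* was higher with 31 and 26 reads against 1 and 8, *Hpgds* with 8 and 6 against 2 and 0, and *Ptgds* with 7 and 7 against 0. Exons of *Ptges3* share 37 bases with *Baz2a* on the same strand, and those of *2810405K02Rik* share 25 with *Mmel1* on the opposite strand.

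*Ptgfrn*, which encodes a membrane partner of the prostaglandin F receptor, showed the widest range of the receptor list. Its signal was 181 and 217 in GFP+Pdgfrα- cells and 4.45 and 2.48 in the GFP-Pdgfrα- population, and it rose by a log2 fold change of 5.51 (standard error 0.20, adjusted p = 1.09e-09, limma). *Ptger3* was lower, with 0 and 1 read against 15 and 20. The prostacyclin receptor gene *Ptgir* was higher with 9 and 13 reads against 0 and 2, and the carbonyl reductase gene *Cbr3* with 17 and 13 against 0.

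When single libraries were left out, this count ranged from 11 to 14. Quantile normalization gave 4 higher and 7 lower, and centring 5 and 7. *Pla2g6* (adjusted p 0.0064 to 0.187 over the limma, edgeR and DESeq2 alternatives) lost its call without either GFP-Pdgfrα- library, without GFP+Pdgfrα- replicate 1 and with DESeq2. *2810405K02Rik* (0.011 to 0.12) and *Ptgir* (0.00735 to 0.14) lost theirs without GFP-Pdgfrα- replicate 1 or either GFP+Pdgfrα- library. Quantile normalization removed both calls as well, and centring that of *Ptgir*. *Hpgds* (0.0247 to 0.335) lost its call in 9 of 16 alternatives. These were a pseudocount of 0.1, quantile normalization, centring, voom, edgeR and DESeq2, and leaving out GFP-Pdgfrα- replicate 2 or either GFP+Pdgfrα- library. The median log2 fold change of the 28 genes was 0.05, or -0.02 with low signals raised to 3 reads, against 0.15 and 0.06 over all genes.

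Between Pdgfrα+ and Pdgfrα- cells that were all GFP-, 14 of the 28 genes were called, 8 higher and 6 lower with Pdgfrα, a balance that turned to 6 and 8 with median centring and to 7 and 8 with quantile normalization. Over all genes 59.7% were called, 32.9% higher and 26.8% lower. Here too the 5226 higher and 4250 lower genes became 4310 and 5202 with centring, and 4249 and 5086 with quantile normalization. The median of all genes was 0.17 on the log2 scale and -0.13 after centring. The libraries with erythroid RNA were again the reference.

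All 5 called genes of the receptor list were higher with Pdgfrα among GFP- cells. *Ptgfr* stood at 30.4 and 26.9 against 2.15 and 1.77, and rose by a log2 fold change of 3.32 (standard error 0.34, adjusted p = 4.08e-06, limma). *Ptgfrn* stood at 437 and 428, a log2 fold change of 6.64 (standard error 0.20, adjusted p = 1.52e-10, limma). *Ptgir* had 23 and 50 reads against 0 and 2, and *Tbxa2r* 35 and 30 against 2 and 3. The fifth called was *Ptger1*, the EP1 receptor gene.

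Of the breakdown and transport genes, 3 of 7 were called higher and 1 lower with Pdgfrα among GFP- cells. *Slco2a1* stood at 41.7 and 22.7 against 0.718 and 5.54 (log2 fold change 3.25, standard error 0.56, adjusted p = 0.000286, limma). *Abcc4* was lower, at 5.67 and 6.09 against 65.6 and 55.8 (log2 fold change -3.16, adjusted p = 2.55e-05, limma). *Cbr3* had 15 and 15 reads against 0, and the prostaglandin reductase gene *Zadh2* was higher by a log2 fold change of 0.84 (standard error 0.22).

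The called phospholipase and synthase genes, 3 of 7 and 2 of 7, were all lower with Pdgfrα among GFP- cells. *Pla2g4c* was lower with 0 and 2 reads against 141 and 158, *Pla2g12a* by a log2 fold change of -3.43 and *Pla2g6* by -0.94. *Akr1b3* and *Ptges3* were lower by log2 fold changes of -1.63 and -0.999.

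The count of 14 ranged from 11 to 15 over single libraries left out. *Pla2g6* (adjusted p 0.00849 to 0.237 over the limma, edgeR and DESeq2 alternatives) lost its call without either GFP-Pdgfrα- library, without GFP-Pdgfrα+ replicate 2 and with DESeq2. *Zadh2* (0.00474 to 0.0515) lost it without GFP-Pdgfrα+ replicate 2 and with centring. *Ptger1* (0.0208 to 0.178) lost it without any 1 of the 4 compared libraries and with quantile normalization, centring and DESeq2. The median log2 fold change of the 28 genes was 0.22, or 0.16 with low signals raised to 3 reads, against 0.17 and 0.12 over all genes.

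**Figure D3:**
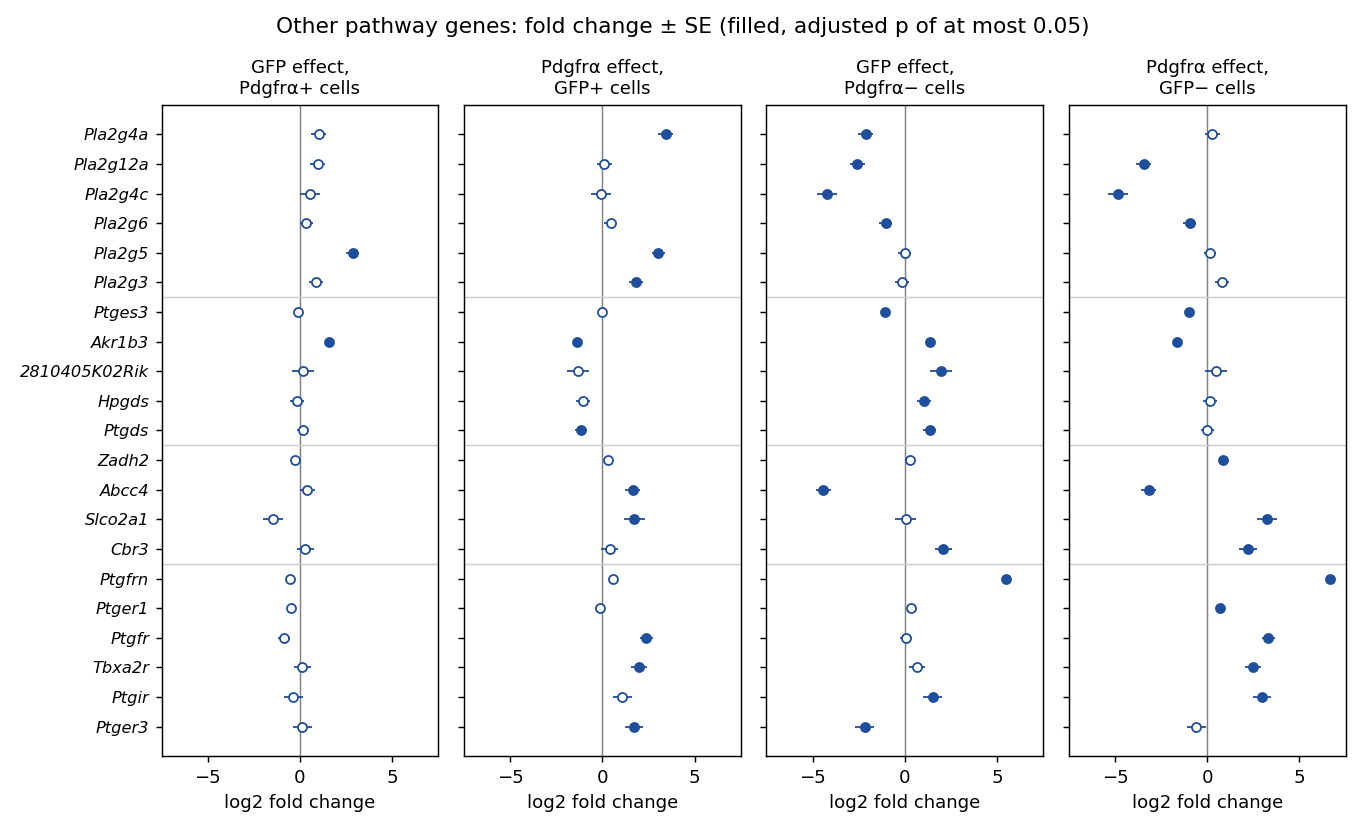
Log2 fold change (horizontal axes) of the named genes of the 4 pathway lists in the 4 comparisons, with bars of 1 standard error and filled points at an adjusted p of at most 0.05 in limma. In the comparison of GFP among Pdgfrα+ cells, 2 points are filled, for *Pla2g5* and *Akr1b3*, and 14 are filled in each comparison with GFP-Pdgfrα- cells.

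The interaction asks whether the difference with GFP was itself different in Pdgfrα+ and Pdgfrα- cells. It was called for 11 of the 28 genes, 8 positive and 3 negative, where positive means a difference that was larger or less negative among Pdgfrα+ cells. Over all genes 44.3% were called, 19.1% positive and 25.2% negative, a balance that turned to 3941 positive and 3287 negative genes with centring and became 3307 and 3306 with quantile normalization. In the arachidonate release list 5 of 7 genes were called, all positive, among them *Pla2g4a* at 3.14 (standard error 0.56, adjusted p = 0.000731, limma). *Pla2g4a* stood at 19.1 and 15.2 in GFP-Pdgfrα- cells and at 23.3 and 18.9 in GFP-Pdgfrα+ cells, so both GFP- populations lay between the GFP+ ones. *Pla2g4c* and *Pla2g12a*, also called, were high in GFP-Pdgfrα- cells alone, the libraries whose erythroid markers summed to 9328 and 15287 against at most 115 elsewhere. The part of these markers in the interactions was not tested.

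*Akr1b3* was higher with GFP on either Pdgfrα background, by log2 fold changes of 1.57 and 1.34, and its interaction was not called (0.23, standard error 0.27, adjusted p = 0.518, limma). The interactions of *Pla2g4a*, *Pla2g12a*, *Pla2g4c*, *Ptges3*, *Abcc4* and *Ptgfrn* were called under all alternatives tried on them. The count of 11 was 7 when GFP+Pdgfrα- replicate 1 was left out, and 9, of which 1 negative, with quantile normalization or centring. *Pla2g6* lost its interaction call with the replicate number as a block, which left 10 genes, and its adjusted p lay between 0.0163 and 0.15 over the limma, edgeR and DESeq2 alternatives. It was also lost without any 1 library other than GFP+Pdgfrα- replicate 2 and GFP-Pdgfrα+ replicate 1, with a pseudocount of 0.1 and with DESeq2. *Pla2g5* (0.000253 to 0.9998) was not called by edgeR or DESeq2. *Cbr3* (0.0055 to 0.131) lost its call without any 1 library other than GFP+Pdgfrα+ replicate 1, and with quantile normalization and centring. For *Ptgir* (0.0191 to 0.199) the libraries that could be spared were GFP-Pdgfrα+ replicate 1 and GFP+Pdgfrα+ replicate 2, and its call was also lost with quantile normalization, centring, voom and without the trend. For *Ptger3* (0.00149 to 0.0806) the libraries that could be spared were replicate 1 of the GFP-Pdgfrα- and of the GFP+Pdgfrα+ cells. The median of the 28 genes was -0.05, or -0.03 with low signals raised to 3 reads, against -0.16 and -0.09 over all genes.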

How the data were processed

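RNA of sorted stromal cells was extracted with PicoPure kits, amplified to cDNA with Ovation V2, sonicated and sequenced from TruSeq libraries on a GAIIx. To make the deposited signal values, the authors trimmed adaptors with cutadapt, quantified reads with RSEM 1.17 on NCBIM37, filtered genes and normalized with voom of limma. Picard is listed in the submitters' notes. Dividing out the value of 1 read gave whole reads for 100% of values (tolerance 0.1 reads). Of 15880 genes, 14235 exceed 2 reads per 1000000 in at least 2 libraries, so the stated filter is not met by all. GENCODE M1 matched 15849 identifiers, and 74 symbols have several identifiers, of which the highest mean was used.

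The functions lmFit and eBayes (trend on) of limma 3.58.1, under R 4.3.3, were applied to log2(value + 1), and each population had its own coefficient. Python 3.11.15 with numpy 2.4.6 and pandas 2.3.3 made the summaries and plots. On the recovered reads, edgeR 4.0.16 called 893, 3586, 8415, 9281 and 6644 genes in the 5 comparisons in the order of the report, and DESeq2 1.42.0 and voom were run too. Scripts were tested on simulated data. Exon overlaps were listed for the members and the synthases, and 1 result on the receptor genes and 1 on the sorting markers are not reported here.

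The members and lists were chosen with earlier results of these data known. Genes named are the members, the called genes of each pathway list up to the 6 of highest mean, the 3 genes most like each member among those of mean 10 or more, and the top marker of each list; any others were named after their values were seen. Other alternatives were a pseudocount of 0.1, a mean signal of at least 2, quantile normalization, median centring, no trend, the replicate block and leaving out each library. Leaving out both GFP-Pdgfrα- libraries was added after seeing the data.

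Because littermates were pooled in the study, libraries with the same number were taken to share a pool. Deviations of same-numbered libraries correlated at 0.0147 to 0.0999 over 13129 genes. *Xist*, transcribed from the inactive X chromosome, was at 2.9 to 11.35 in replicate 1 and 868 to 1380 in replicate 2. Replicate number thus went with *Xist* in every population, so a difference in the sex of the pups cannot be told apart from the spread between replicates. The reported fit has no block.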

Additional observations from a re-analysis of the deposited data

Results flagged for a closer look

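The GFP difference among Pdgfrα+ cells minus that among Pdgfrα- cells, tested as an interaction in limma, passed an adjusted p of 0.05 for these genes of the naming rule. Of all genes 44.3% were called in this interaction, and of the 28 pathway genes 11. All values are differences of log2 fold changes. Where a population is at the floor, as for *Pla2g4c*, *Pla2g5*, *Cbr3*, *Ptgir*, *Ptger3*, *Ephx1* and *Cysltr2*, the fitted value depends on the pseudocount. The calls of *Pla2g6*, *Pla2g5*, *Cbr3*, *Ptgir*, *Ptger3*, *Cysltr2*, *Creb1*, *Tia1* and *Fosb* were lost in at least 1 alternative. The GFP-Pdgfrα- libraries enter each interaction, and their erythroid markers summed to 9328 and 15287 against 31.6 to 115 in the other 6. *Pla2g12a* had a mean of 47.8 there against 3.99 to 7.91 in the other populations, and *Pla2g4c* 39.0 against 0.434 to 1.43. The part of these markers was not tested.

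In the arachidonate release list it was 3.14 for *Pla2g4a* (adjusted p = 0.000731, limma), 3.53 for *Pla2g12a*, 4.77 for *Pla2g4c*, 1.38 for *Pla2g6* and 2.87 for *Pla2g5*. For the synthase *Ptges3* it was 0.97. Among transport and breakdown genes it was 4.81 for *Abcc4* (adjusted p = 3.18e-05, limma) and -1.81 for *Cbr3*. The receptor list gave -6.08 for *Ptgfrn* (adjusted p = 2.39e-08, limma), which is not itself a prostanoid receptor gene, -1.87 for *Ptgir* and 2.31 for *Ptger3*.

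In the lipoxygenase and epoxygenase arm it was -3.30 for *Ephx1* and 1.49 for *Cysltr2*. Genes listed as regulators of the *Ptgs2* transcript gave -3.57 for *Egr1*, -4.20 for *Celf2*, 1.47 for *Khsrp*, 0.59 for *Creb1* and -0.69 for *Tia1*. The list of cyclic AMP response genes gave -1.60 for *Dusp1*, -1.04 for *Fosb*, -2.53 for *Pde4b* and -3.02 for *Nr4a1*.

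For *Ptgis* both GFP+ libraries lay below both GFP- libraries among Pdgfrα+ cells and above them among Pdgfrα- cells. The difference of these GFP differences was -3.96 and was not tested.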

How the results depend on the processing

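Of the 5 counts of called pathway genes, 1 moved by more than 1.5 times outside the runs without 1 library. That count, for GFP among Pdgfrα+ cells, went from 2 to 5 with voom and to 4 without both GFP-Pdgfrα- libraries, and was 3 with DESeq2 and 2 with edgeR. The cause was not tested. Leaving out 1 library at a time gave 2 to 4 genes there (4 and 3 without GFP-Pdgfrα- replicate 1 and 2), 5 to 11 for Pdgfrα among GFP+ cells, 11 to 14 for GFP among Pdgfrα- cells, 11 to 15 for Pdgfrα among GFP- cells and 7 to 11 for the interaction. The lone library left in a population was assumed to vary like the others. Without both GFP-Pdgfrα- libraries, comparisons with them have no value, and adjusted p-values that DESeq2 left empty were not counted.

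With the replicate block the counts were 2, 10, 14, 14 and 10. The interaction of *Pla2g6* lost its call, and no other call of a named gene was lost with the block.

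Small folds changed sign. Over single libraries left out, *Ptgs1* with GFP among Pdgfrα- cells ran from -0.077 to 0.025 (-0.03 with all), and *Ptges* with GFP among Pdgfrα+ cells from -0.46 to 0.21 (-0.12 with all). *Ptgs2* with GFP among Pdgfrα- cells went from 0.49 to -0.23 with quantile normalization. Over the alternatives, 346 folds of the 6 genes moved by less than the replicate spread, 71 by more and 3 reversed. Of 102 calls of named genes in the other lists, 68 passed under all alternatives that gave a value and 34 were lost in at least 1.

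Over all genes, the 849 calls for GFP among Pdgfrα+ cells became 532 with no trend, 306 and 246 without GFP-Pdgfrα+ replicate 1 and 2, and 350 and 517 without GFP+Pdgfrα+ replicate 1 and 2. The 3848 calls for Pdgfrα among GFP+ cells became 2158 and 2411 without GFP+Pdgfrα- replicate 1 and 2. Median centring gave 3923 higher and 4864 lower calls in place of 4787 and 3740 for GFP among Pdgfrα- cells, and 3941 and 3287 in place of 3032 and 3999 for the interaction. Voom gave 521 and 536 in place of 511 and 338 for GFP among Pdgfrα+ cells. The all-gene median moved from 0.15 to -0.13 with centring and -0.14 with quantile normalization for GFP among Pdgfrα- cells, from 0.17 to -0.13 and -0.15 for Pdgfrα among GFP- cells, and from -0.16 to 0.13 and 0.096 for the interaction.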

Other observations

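Arachidonate can also enter lipoxygenase and epoxygenase routes, for which 9 of 15 listed genes were measured. In limma, 2 were called for GFP among Pdgfrα+ cells (1 higher, 1 lower), 4 for Pdgfrα among GFP+ cells (3 higher, 1 lower), 3 for GFP among Pdgfrα- cells (2 higher, 1 lower), 4 for Pdgfrα among GFP- cells (3 higher, 1 lower) and 2 for the interaction. Over all genes 5.35%, 24.2%, 53.7%, 59.7% and 44.3% were called in these comparisons in turn. *Alox12*, a lipoxygenase gene, stood at 13.0 and 12.6 in GFP-Pdgfrα+ cells and at 3.31 or less in the other 6 libraries. With GFP among Pdgfrα+ cells it fell by a log2 fold change of -1.92 (standard error 0.39, adjusted p = 0.0143, limma), and the adjusted p ranged from 0.00891 to 0.11 over the limma, edgeR and DESeq2 alternatives. The call was lost without either GFP-Pdgfrα+ library, without GFP+Pdgfrα+ replicate 1, with a pseudocount of 0.1 and with DESeq2. The other gene called there, *Cysltr2*, had 10 and 7 reads in GFP+Pdgfrα+ cells against 0, and its call was lost without the same 3 libraries and with edgeR, while DESeq2 gave it no adjusted p. The filter stated for the table was met for *Cysltr2* by the GFP+Pdgfrα+ libraries alone. The 2 calls of that comparison were 3 with voom, 1 with edgeR and 0 with DESeq2, and the 2 interactions 1 with voom, edgeR or DESeq2. *Ephx1*, an epoxide hydrolase gene, stood at 34.9 and 38.5 in GFP-Pdgfrα+ cells, 15.1 and 20.8 in the GFP+Pdgfrα+ population and 3.76 and 6.82 in GFP+Pdgfrα- cells, with 0 and 1 read in GFP-Pdgfrα- cells.

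All 15 genes listed as regulators of the *Ptgs2* transcript were measured. For GFP among Pdgfrα+ cells 1 was called, against 5.35% of all genes. The gene was *Zfp36*, whose product promotes decay of messenger RNA with AU-rich elements. It stood at 388 and 258 against 131 and 87.8 (log2 fold change 1.55, standard error 0.21, adjusted p = 0.00133, limma). In the order of the other comparisons 7, 11, 11 and 9 of the 15 genes were called, against 24.2%, 53.7%, 59.7% and 44.3% of all genes. With Pdgfrα, 3 were called higher and 4 lower among GFP+ cells, against 13.1% and 11.1% of all genes. Among GFP- cells these were 7 and 4, against 32.9% and 26.8%. The receptor genes *Il1r1* and *Tnfrsf1a*, for interleukin 1 and tumour necrosis factor, were named after their values were seen. Both were higher in each Pdgfrα+ library than in any Pdgfrα- library. *Il1r1* ranged from 61.7 to 102 in the former and reached 31.0 in the latter, and *Tnfrsf1a* ranged from 47.3 to 90.6 and reached 37.2.

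Of 11 genes listed as cyclic AMP response genes 10 were measured. In the 5 comparisons 1, 4, 7, 7 and 7 were called, against 5.35%, 24.2%, 53.7%, 59.7% and 44.3% of all genes. Cyclic AMP itself was not measured. The part of crushing and collagenase digestion in the signals of these genes, and of *Ptgs2*, was not tested. *Fosb* was the 1 called for GFP among Pdgfrα+ cells, at 361 and 257 against 62.1 and 52.7 (log2 fold change 2.39, standard error 0.25, adjusted p = 0.000213, limma), and it was at 207 and 330 in GFP+Pdgfrα- cells. For GFP among Pdgfrα- cells all 7 called genes were higher, and the 7 called interactions were all negative. Over all genes 30.1% were called higher for GFP among Pdgfrα- cells, and 25.2% negative for the interaction. The compared libraries differed in erythroid markers, which summed to 9328 and 15287 in GFP-Pdgfrα- cells against 115 and 68.3 in GFP+Pdgfrα- cells. Smooth muscle and pericyte markers summed to 84.0 and 137 against 2041 and 2639, and the part of either in these calls was not tested. *Pde4b*, which encodes a phosphodiesterase of cyclic AMP, stood at 125 and 125 in GFP+Pdgfrα- cells and at 26.6 or less in the other 6 libraries.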
